A study of Mus musculus with 22 samples.

Results

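SWI/SNF complexes are ATP-driven machines that slide and evict nucleosomes. Their subunits assemble in alternative forms. The BAF form carries one of the paralogous DNA-binding subunits Arid1a or Arid1b, whereas the PBAF form carries Arid2, the polybromo subunit Pbrm1 and the bromodomain protein Brd7. Both forms share an ATPase, Smarca4 or Smarca2, and core subunits such as Smarcb1, Smarcc1 and Smarcd2. These remodellers keep promoters and enhancers accessible, and several of their genes are recurrently mutated in blood cancers. Acetylation of histone H3 at lysine 27 (H3K27ac) marks active promoters and enhancers. The chromatin at the SWI/SNF genes themselves was examined here for the 10 subunit genes Arid1a, Arid1b, Arid2, Pbrm1, Brd7, Smarca4, Smarca2, Smarcb1, Smarcc1 and Smarcd2, out of 21853 protein-coding genes of the annotation. Each gene was given all H3K27ac peaks that overlap its body or lie within 10 kb of it, and its TSS peak was the peak of highest fold enrichment within 1 kb of an annotated protein-coding transcription start site (TSS). Fold enrichment is the value of the peak caller, the fragments piled up at a summit over the background the caller set for that place. The control behind this background is not given in the sources used here and may have been a separate library, so a fold enrichment is relative to an unknown control. These neighbourhoods held 105 of the 23410 peaks of library 1, 108 of 25963 in library 2 and 108 of 23758 in library 3.

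The peaks came from chromatin immunoprecipitation sequencing (ChIP-seq) of KL cells, the myeloid progenitors of bone marrow defined by sorting as lineage-negative, cKit-positive and Sca-1-negative. They were sorted 20 weeks after tamoxifen (1 mg a day for 5 days, begun at 3 to 6 months of age) from male C57BL/6 mice of genotype scl-Cre-ERT +; Bcorfl/y, in which a Cre recombinase driven by a stem cell promoter removes exons 9 and 10 of the X-linked co-repressor gene Bcor (BcorΔE9-10). The 3 libraries are numbered as replicates 1, 2 and 3 in the labels, and the methods of the study give 3 mice for this genotype. All 3 carry the same allele, Cre and treatment, and H3K27ac in BcorWT cells was not analysed here, so genes are compared with each other within the libraries and genotypes are not compared. Peak lists do not measure the deletion itself.

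Sequencing depth, recovered from the peak values, was 18.0 M, 18.9 M and 19.3 M reads in libraries 1, 2 and 3, and the weakest called summits rested on 8, 8 and 9 fragments. The cell label was checked against marker genes. A TSS peak in all 3 libraries was found for 6 of 7 progenitor genes (Kit, Gata2, Myb, Runx1, Spi1 and Cebpa, with Gata1 lacking one) and for none of 6 mature neutrophil, none of 3 erythroid (Hbb-bt, Alas2 and Slc4a1) and none of 8 non-haematopoietic genes. Of 4 lymphoid genes, 1 had such a peak in all 3 libraries. In a single library a TSS peak was called at 1 neutrophil gene (Ngp, fold enrichment 5.29 in library 2). Whether a few cells of another type contribute to the peaks below was not tested.

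The promoters of the paralogous pairs are shown first, because the comparisons of paralogues below turn on them. The sequences are those of RefSeq on GRCm38.p6, 5′ to 3′ on the strand of the gene. Each window is the 250 bases ending at the base before the RefSeq start. Annotated UTR bases are not printed, so the printed Smarca2 sequence stops short of the RefSeq start. Base composition and motifs were counted in the full 250 bases. Entries matched 9 of the 10 genes. Capitals mark GGGCGG (the GC box bound by SP1) and CCGGAA (the core of ETS sites), both strands included. The printed Arid1a bases are chr4:133756770-133757019 (minus strand, the upstream promoter) and chr4:133753986-133754235 (minus strand, the inner promoter). Those of Arid1b are chr17:4994824-4995073 (plus strand). The Arid1b window lies downstream of the first GENCODE start, spans the protein-coding start at 4994939 and ends in coding sequence. The printed Smarca4 bases are chr9:21615919-21616168 (plus strand), and those of Smarca2 are chr19:26604910-26605049 (plus strand, 140 bases).
Arid1a upstream promoter: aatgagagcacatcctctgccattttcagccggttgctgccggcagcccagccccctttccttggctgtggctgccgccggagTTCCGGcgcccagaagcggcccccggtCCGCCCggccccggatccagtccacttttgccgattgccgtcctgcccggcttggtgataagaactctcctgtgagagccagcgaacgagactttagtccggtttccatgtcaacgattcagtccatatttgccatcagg
Arid1a inner promoter: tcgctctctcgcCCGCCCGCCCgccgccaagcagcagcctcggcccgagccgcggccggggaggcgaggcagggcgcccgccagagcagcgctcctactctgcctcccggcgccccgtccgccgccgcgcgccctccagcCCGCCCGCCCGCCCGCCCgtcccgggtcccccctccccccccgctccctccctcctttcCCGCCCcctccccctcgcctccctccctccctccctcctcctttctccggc
Arid1b promoter: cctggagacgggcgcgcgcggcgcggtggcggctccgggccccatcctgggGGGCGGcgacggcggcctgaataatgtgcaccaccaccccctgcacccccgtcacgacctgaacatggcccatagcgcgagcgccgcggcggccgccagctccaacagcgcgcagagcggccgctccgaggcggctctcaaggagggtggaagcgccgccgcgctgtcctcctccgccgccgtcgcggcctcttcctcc
Smarca4 promoter: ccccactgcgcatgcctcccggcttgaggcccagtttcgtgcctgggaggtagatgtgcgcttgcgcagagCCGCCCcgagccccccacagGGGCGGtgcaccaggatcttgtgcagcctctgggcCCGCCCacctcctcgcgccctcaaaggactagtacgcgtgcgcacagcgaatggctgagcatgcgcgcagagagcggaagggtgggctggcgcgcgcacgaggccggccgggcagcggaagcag
Smarca2 promoter: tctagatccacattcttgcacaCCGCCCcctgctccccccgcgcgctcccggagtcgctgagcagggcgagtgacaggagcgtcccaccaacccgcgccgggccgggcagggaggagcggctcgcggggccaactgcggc

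The inner Arid1a window was the richest in G and C of the matched promoters, at 81.6%. It held 7 GC box matches, most of them overlapping each other and so not separate sites. The Arid1b window followed with 76.0% and 1 GC box, against a median of 52.4% over 32817 promoters. The GC content of the 10 windows of the 9 genes ran from 56.4% for Smarcd2, whose entry lies at an inner start and overlaps no peak, to that of the inner Arid1a window. GGGCGG was found in the windows of 8 of 9 genes, all but Pbrm1, and in 32.7% of all promoters. The motif is made of G and C alone, and the part of base composition in its share was not tested. CCGGAA was found at 4 of 9 (Arid1a, Pbrm1, Smarca2 and Smarcc1) and in 12.0% of all promoters. At Smarca2 this match and a GC box begin 105 and 69 bases before the RefSeq start, outside the printed bases. The other motifs were also searched on both strands. GCGCATGCG (the NRF1 site) was found at Smarcc1 and in 1.44% of all promoters. CACGTG (the E-box) was found at Pbrm1 and in 6.02% of all promoters. At Brd7 a Runx site (TGTGGT) was found, as in 14.0% of promoters. The Smarcd2 window held a TATA box (TATAAA), as 12.4% did. CCGGAAGT, a longer ETS site that contains the core, was in no window of the 9 genes and in 2.88% of promoters. The same was true of AAGATGGCG (the YY1 site), with 0.603% of promoters. No window of the 9 genes held the CCAAT box, found in 33.8% of promoters. For the CRE (TGACGTCA) the share of promoters was 1.55%, and again none of the 9 held it. Nor did any hold the GATA site AGATAA, which 9.99% of promoters have. A match describes letters in a window and shows no binding.

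The windows differ in where they sit relative to the acetylated chromatin. All 250 bases of the Arid1b window and of the inner Arid1a window lay inside a called peak in all 3 libraries. None of the Smarca2 window did in any library, because it falls in a gap between 2 peaks. The Smarca4 window had 0, 12 and 53 bases inside a peak in libraries 1, 2 and 3, and likewise lies between a weaker upstream and a stronger downstream peak.

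To ask how strongly each subunit gene is acetylated at its start, TSS peaks were compared first. All 10 genes had a TSS peak in all 3 libraries. Over all protein-coding genes this held for 42.5%. Fold enrichment at the 10 genes had a median of 11.7, 14.7 and 14.8 in libraries 1, 2 and 3, and the medians over all genes with a TSS peak were 9.10, 9.30 and 10.8. In all 3 libraries 6 of the 10 genes lay above their library's median fold enrichment (Arid1a, Arid1b, Arid2, Pbrm1, Smarca4 and Smarcc1), and 7 of 10 lay above its median width. Smarca2 lay below the median fold enrichment in each library.

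Among the PBAF genes, Arid2, which encodes the subunit with an AT-rich interaction domain, had the TSS peak of highest fold enrichment of the 10. Its fold enrichment was 22.9 in library 1, 21.8 in library 2 and 27.6 in library 3, a mean of 24.1 ± 3.09 (SD, n = 3), resting on 66, 65 and 84 fragments. No fold enrichment of another member reached the lowest of the Arid2 values, and the nearest was Arid1a in library 3 (21.2). By fragments at the summit Arid2 was not the highest in every library. Smarca4 held 71 in library 2, and Arid1a held 87 in library 3. The Arid2 peak was 4552, 4146 and 4178 bp wide. Each distinct TSS peak counted once, it was the widest of 8616 in library 1, the widest of 8853 in library 2 and number 2 of 8821 in library 3. Its summit lay at -2304, -2313 and -2317 bp from the start (chr15:96284598-96288775 in library 3), so the strongest acetylation of this peak was not at the start itself.

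Pbrm1, the polybromo subunit, reads acetylated lysines through its bromodomains. Its TSS peak had a fold enrichment of 10.9, 11.0 and 14.0 (mean 12.0 ± 1.77 SD, n = 3) and a width of 643, 805 and 814 bp, close to the middle of all TSS peaks. This peak lies upstream of the start and within 1 kb of the TSS of the divergent gene Gnl3, a nucleolar GTP-binding protein, in all 3 libraries, so its signal cannot be assigned to either gene. A second peak just downstream of the Pbrm1 start had 9.25, 10.2 and 12.8. Brd7, a bromodomain protein of PBAF, had 10.9, 15.3 and 10.3 (mean 12.2 ± 2.72 SD, n = 3). Its single peak was 1515, 1713 and 1283 bp wide, wider than 84.8% or more of TSS peaks in each library, although its fold enrichment was ordinary.

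Of the BAF genes, Arid1a has several annotated starts. The peak at an inner start gave the highest value, 16.0, 14.9 and 21.2 in libraries 1, 2 and 3 (mean 17.4 ± 3.35 SD, n = 3). Its width was 2571, 2624 and 2626 bp, which varied by 1.20% between libraries (SD over mean). The most upstream start had a separate peak of lower fold enrichment, at 9.02, 7.25 and 8.63. Its summit held 51, 57 and 78 fragments, beside 62, 59 and 87 at the inner start. The 2 peaks thus differed less in fragments than in fold enrichment over the background. Arid1b had 12.49, 16.6 and 16.5 (mean 15.2 ± 2.33 SD, n = 3), with library 1 below the other libraries. Its TSS peak (chr17:4993707-4997507 over the 3 libraries) was 3801, 3710 and 3759 bp wide, number 2, 3 and 7 among all distinct TSS peaks. At the strongest TSS peak, width therefore set the 3 ARID genes apart from the other 7: the narrowest of their 9 values was 2571 bp and the widest of the other 21 was 1713 bp. At its most upstream start the Arid1a peak was 870 ± 259 bp wide (SD, n = 3). By that choice of start the mean of Arid1a fell among the other genes, below Brd7, Smarcc1, Smarca4 and Smarcd2. The split was noticed in the values and is a description. It covers the 10 genes only. Bicral, a further subunit gene described below, had TSS peaks of 2576, 2521 and 2637 bp, similar to Arid1a.

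**Figure D1:**
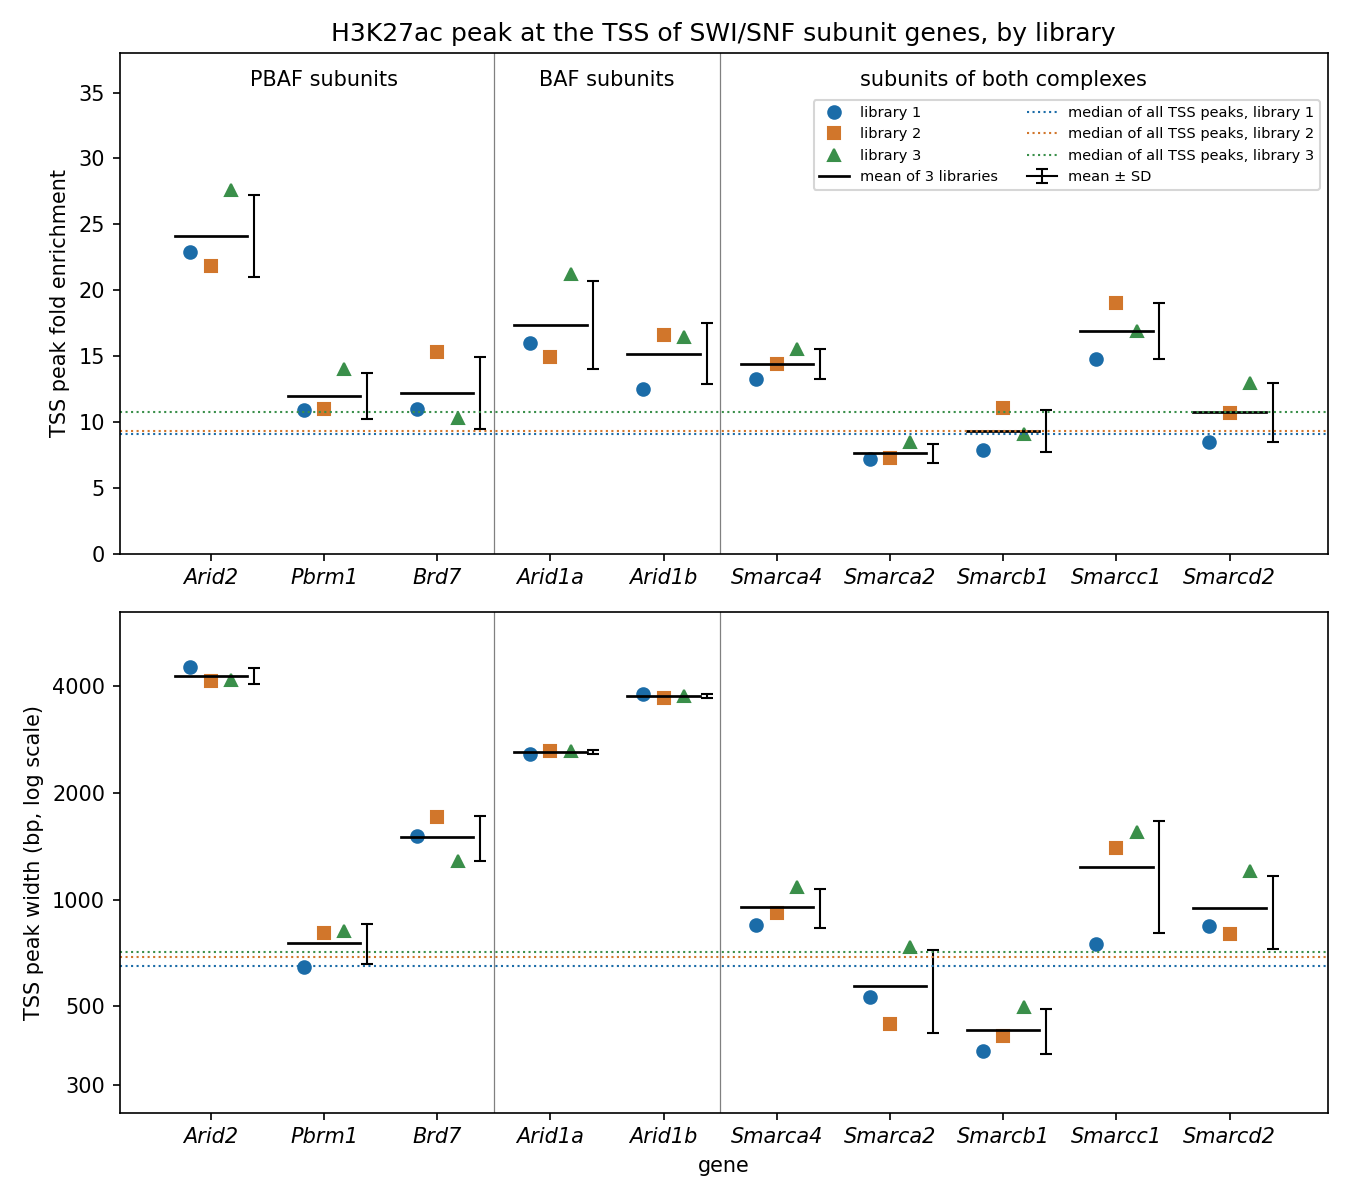
TSS peak fold enrichment (upper panel, linear axis) and TSS peak width in bp (lower panel, log axis) of the 10 SWI/SNF genes in libraries 1, 2 and 3 (symbols), with the mean (bar) and SD (error bar) of the 3 libraries and each library's median over all genes with a TSS peak (dotted lines). Arid2 is highest in both panels, and the widths of the strongest TSS peaks of Arid2, Arid1b and Arid1a, all 2571 bp or more, lie clear of the other 7 genes.

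Among subunits of both forms, the ATPase gene Smarca4 had 13.3, 14.4 and 15.5 (mean 14.4 ± 1.12 SD, n = 3) and a width of 849, 916 and 1085 bp. Smarca2, the alternative ATPase, had the lowest TSS peak of the 10, with 7.17, 7.25 and 8.45 (mean 7.62 ± 0.720 SD, n = 3) and a width of 529, 444 and 735 bp. The strongest Smarca2 TSS peak was a different one in each library: at a start inside the gene in library 1, at the first starts in library 2 and 1225 bp downstream of a start in library 3. Smarcb1, a core subunit lost in rhabdoid tumours, had 7.90, 11.1 and 9.05 (mean 9.34 ± 1.59 SD, n = 3) in the narrowest peaks, of 374, 412 and 496 bp. Smarcc1, a scaffold subunit, had 14.8, 19.1 and 16.9 (mean 16.9 ± 2.15 SD, n = 3). Both promoters of Smarcc1 were acetylated, the upstream one at 13.6, 19.1 and 16.9 and the inner one at 14.8, 14.0 and 16.2, and the upstream peak lies within 1 kb of the TSS of Dhx30, an RNA helicase gene. Smarcd2, a subunit known for its role in granulocyte development, had 8.49, 10.7 and 13.0 (mean 10.7 ± 2.24 SD, n = 3).

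By mean fold enrichment the order was Arid2, Arid1a, Smarcc1, Arid1b, Smarca4, Brd7, Pbrm1, Smarcd2, Smarcb1 and Smarca2. Arid2 did not overlap Arid1a over the 3 libraries. Each later neighbouring pair in this order did overlap. By mean width the order was Arid2 (4292 bp), Arid1b (3757 bp), Arid1a (2607 bp), Brd7 (1504 bp), Smarcc1 (1233 bp), Smarca4 (950.0 bp), Smarcd2 (947 bp), Pbrm1 (754 bp), Smarca2 (569 bp) and Smarcb1 (427 bp). The first 3 overlapped neither each other nor Brd7, and each later neighbouring pair overlapped.

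**Figure D2:**
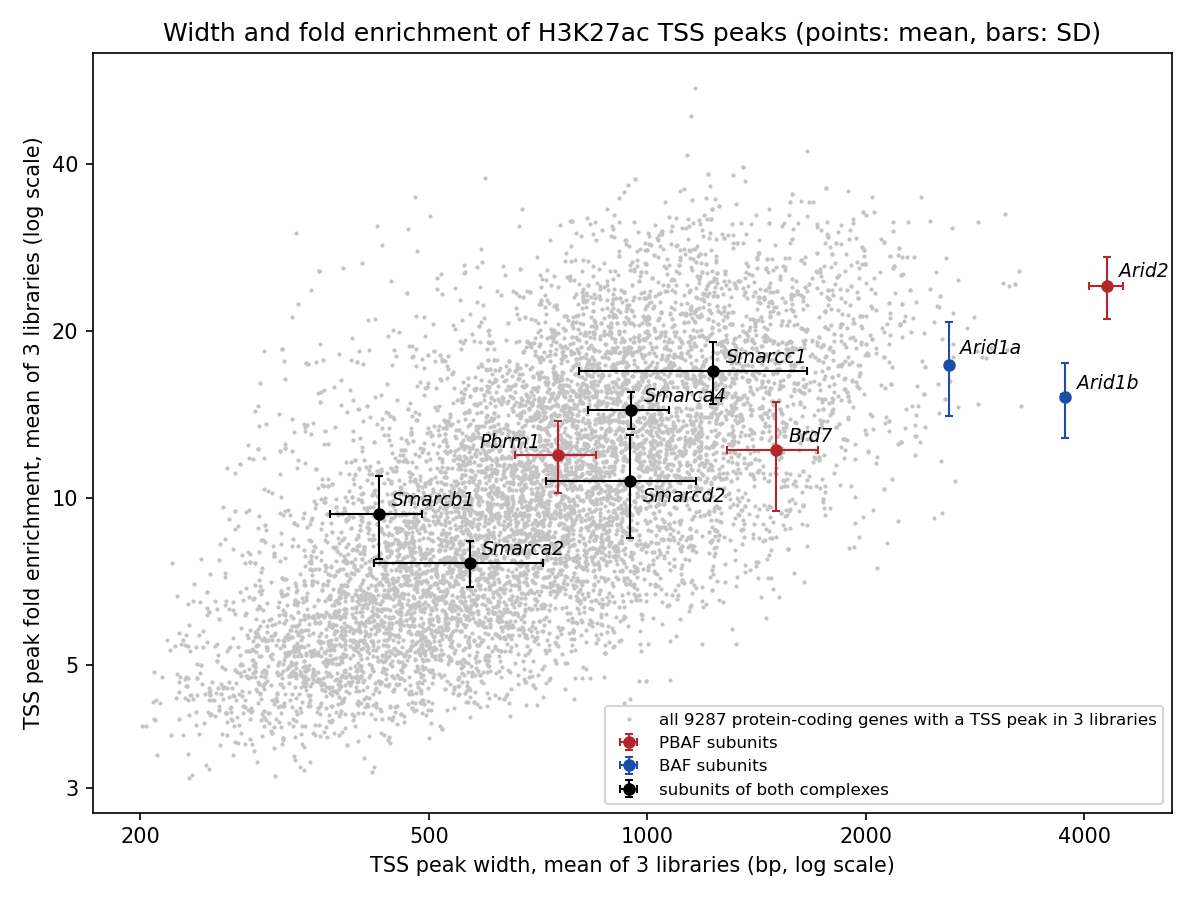
Mean TSS peak width (x axis, bp, log scale) against mean TSS peak fold enrichment (y axis, log scale) over 3 libraries, for 9287 protein-coding genes with a TSS peak in all 3 (grey) and the 10 SWI/SNF genes (coloured by complex, with SD bars). By their strongest TSS peak the 3 ARID genes lie at the right edge, at mean widths of 2607 to 4292 bp, whereas their fold enrichment of 15.2 to 24.1 is shared by many genes.

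The PBAF genes were then set against the BAF genes within each library, as the mean log2 value over Arid2, Pbrm1 and Brd7 minus that over Arid1a and Arid1b. The geometric mean fold enrichment was 14.0, 15.4 and 15.9 for PBAF and 14.1, 15.7 and 18.7 for BAF. The log2 ratio was -0.02, -0.03 and -0.24, a mean of -0.09 ± 0.12 (SD, n = 3), which is smaller than its SD (exact sign-flip permutation test over libraries, two-sided, p = 0.25). With 3 libraries no p below 0.25 can be reached. The sign turned to 0.43 when only the most upstream start was used and to 0.08 without Pbrm1, whose peak is shared with Gnl3. It moved the other way with the wider subunit lists, to -0.39 ± 0.12, and without Arid2, to -0.43 ± 0.19 (SD, n = 3 each). The wider lists added Phf10 to PBAF, and Dpf2, Ss18 and Bcl7b to BAF. Bcl7b had the highest mean fold enrichment of the further subunit genes described below (31.1). Its paralogues Bcl7a (10.1) and Bcl7c (13.8) were in neither list, and the wider lists without Bcl7b were not tested. So neither the sign nor the size of the PBAF to BAF ratio held across the choices of genes and starts. TSS peaks of PBAF genes were narrower, with a geometric mean of 1643, 1788 and 1634 bp against 3126, 3120 and 3142 bp, a log2 ratio of -0.89 ± 0.08 (SD, n = 3) that was below 0 in all 3 libraries (exact permutation p = 0.25). The PBAF mean joins unlike genes: without Arid2, an alternative added after seeing the widths, the width ratio was -1.56. With the wider lists it was -0.27 ± 0.12, without genes that share a TSS peak -0.31 ± 0.12, and with the most upstream start only -0.08 ± 0.25 (SD, n = 3 each).

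Arid1a and Arid1b, which exclude each other from a BAF complex, did not differ in fold enrichment in the same direction in all libraries. The log2 ratio of Arid1a to Arid1b was 0.36, -0.15 and 0.36 (mean 0.19 ± 0.30 SD, n = 3; exact permutation p = 0.50), so its sign differed between libraries. At the most upstream Arid1a start the ratio was -0.87. The peak there held 51, 57 and 78 fragments in libraries 1, 2 and 3, beside 41, 57 and 57 at Arid1b. The Arid1a peak was narrower in every library, by a log2 ratio of -0.53 ± 0.03 (SD, n = 3; exact permutation p = 0.25), or 0.694 of the Arid1b width. At the most upstream Arid1a start the width ratio was -2.15 ± 0.41 (SD, n = 3). Summed over all peaks within 1 kb of a start the order turned, with a log2 ratio of 0.14, since Arid1a has peaks at more starts.

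Smarca4 exceeded Smarca2 in every library, with a log2 ratio of fold enrichment of 0.89, 0.99 and 0.88 (mean 0.92 ± 0.06 SD, n = 3; exact permutation p = 0.25), a 1.89-fold difference. The difference is many times the spread between libraries, but the design allows no smaller p. Its size depends on what counts as the start. A peak in an intron of the protein-coding Smarca2 transcripts, 2.52 kb from the first start (chr19:26606722-26608018), was stronger than its TSS peaks, at 11.6, 11.6 and 10.4. Part of this peak is annotated as UTR, and transcripts of other types were not considered in calling it intronic. With a distance of 2.5 kb, which takes it in, the log2 ratio fell to 0.36. Smarca4 peaks were wider by 0.76 ± 0.25 on the log2 scale (SD, n = 3; exact permutation p = 0.25), but narrower by this wider distance, at -0.40. After adjustment over the 6 comparisons (Benjamini-Hochberg) the p of 0.25 became 0.30, and that of 0.50 stayed 0.50.

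The other genes of the complexes give the setting of these values. Of 21 further subunit genes, 16 had a TSS peak in all 3 libraries, with mean fold enrichments from 7.72 to 31.1 (median 13.3). The highest were Bcl7b (31.1 ± 7.03), Smarce1 (28.8 ± 6.62) and the noncanonical BAF subunit gene Bicral (27.1 ± 4.37, SD, n = 3 each), all above the mean of Arid2. The lowest with a peak in all 3 libraries were Bcl11a (7.72 ± 2.13) and the actin-related subunit gene Actl6a (8.29 ± 0.313). No TSS peak was called in any library at Smarcd3, Actl6b, Dpf1 and Bcl11b. Actl6b and Dpf1 belong to the neuronal form of BAF, and Smarcd3 is known from heart and muscle. Another neuronal gene, Dpf3, had 1 narrow peak of 207 bp in library 2 (2.98). The neuronal subunit gene Ss18l1 went the other way, with 24.7, 20.9 and 25.4 in libraries 1, 2 and 3 (mean 23.6 ± 2.39 SD, n = 3). Its peak lies within 1 kb of the TSS of Psma7 in each library, so the signal cannot be assigned to either gene. Among paralogues of the members, Smarcc2 had 11.5 ± 0.237 against 16.9 for Smarcc1, and Smarcd1 had 13.4 ± 2.27 against 10.7 for Smarcd2. Phf10, a PBAF subunit, had 12.9 ± 3.03, near Pbrm1 and Brd7.

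The whole gene bodies were then examined, where the members differed far more than at their starts. The neighbourhood of Arid1b held 63, 62 and 65 peaks in libraries 1, 2 and 3, that of Arid1a 14, 14 and 15, and those of the other 8 genes between 1 and 6. Over all protein-coding genes, 0.764% had 10 or more peaks in all 3 libraries, as 2 of the 10 members did. By the number of peaks overlapping the gene itself, Arid1b was number 3, 5 and 3 among 21853 genes. Arid1b is long, at 353 kb (chr17:4994332-5347656), yet its density of 17.8, 17.5 and 18.4 peaks per 100 kb was above that of 99.2% or more of the 2484 genes of at least 100 kb in each library. For comparison, the 117 kb of Arid2 (chr15:96287518-96404992) had 1.70, 4.26 and 4.26 peaks per 100 kb, and the 173 kb of Smarca2 had 2.89, 2.31 and 2.31. The Arid1b peaks stopped at the ends of the gene. The 100 kb upstream held 1, 2 and 1 peaks and the 100 kb downstream 3, 3 and 2.

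**Figure D3:**
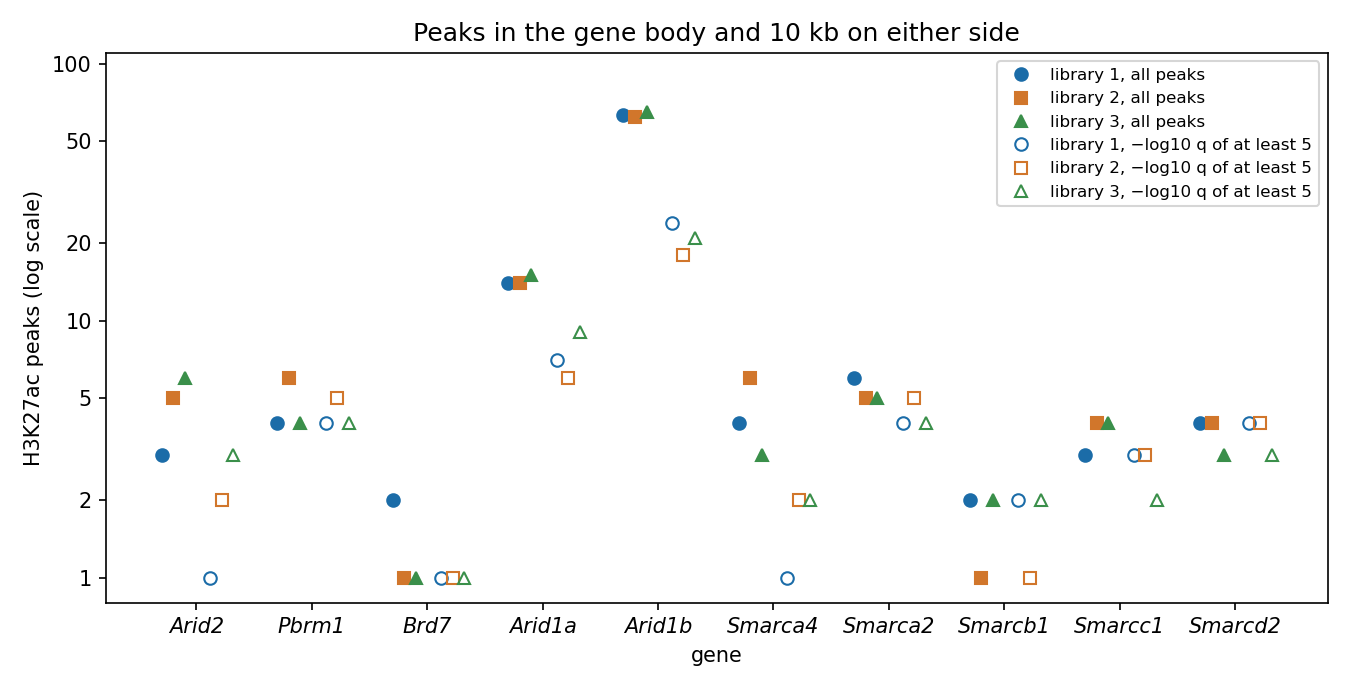
Number of H3K27ac peaks (y axis, log scale) in the gene body and 10 kb on either side of each SWI/SNF gene in libraries 1, 2 and 3, for all peaks (filled) and for peaks with a −log10 q of at least 5 (open). Arid1b, with 62 to 65 peaks, lies above Arid1a, with 14 or 15, and above the other 8 genes, with 1 to 6, and remains highest at the stricter threshold with 18 to 24.

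Most of the places with an Arid1b peak were called in a single library. Merged over the libraries the peaks formed 118 regions, of which 22 were shared by all 3 libraries, 19 by 2 libraries and 77 were called in 1. Of the 117 regions away from a TSS, 21 (17.9%, Wilson 95% interval 12.0% to 25.9%) were found in all 3 libraries, and of all 20098 such regions of the genome 18.8% were. So the share of Arid1b regions found in all libraries was within counting error of that of distal regions elsewhere. The median fold enrichment of the Arid1b peaks was 4.10, 3.97 and 4.23, beside 4.10, 3.97 and 4.47 for all peaks away from a TSS, and their median summit held 12, 12 and 14 fragments. Regions found in all 3 libraries were stronger, with a median fold enrichment of 5.21 against 3.69 for those in a single library, and wider, at 580.0 bp against 251 bp. With a −log10 q of at least 5 the neighbourhood held 24, 18 and 21 peaks, and Arid1b was number 2, 3 and 4 of all genes. At this depth a weak site can be called in a library and missed in the next, so regions in 1 library need not be absent from the others.

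The Arid1b regions were not spread evenly. By distance from the most upstream start, 18 regions lay in the first 50 kb, 22 between 50 and 100 kb, 5 between 100 and 150 kb, 10 between 150 and 200 kb, 25 between 200 and 250 kb, 23 between 250 and 300 kb and 15 beyond 300 kb. Of those between 200 and 300 kb, 12 were in all 3 libraries. In all, 114 of the 118 regions lay within introns, 3 touched an exon and 1 was the TSS region. The thinly marked stretch thus ran from 100 to 200 kb in each library, with 6, 7 and 4 peaks.

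**Figure D4:**
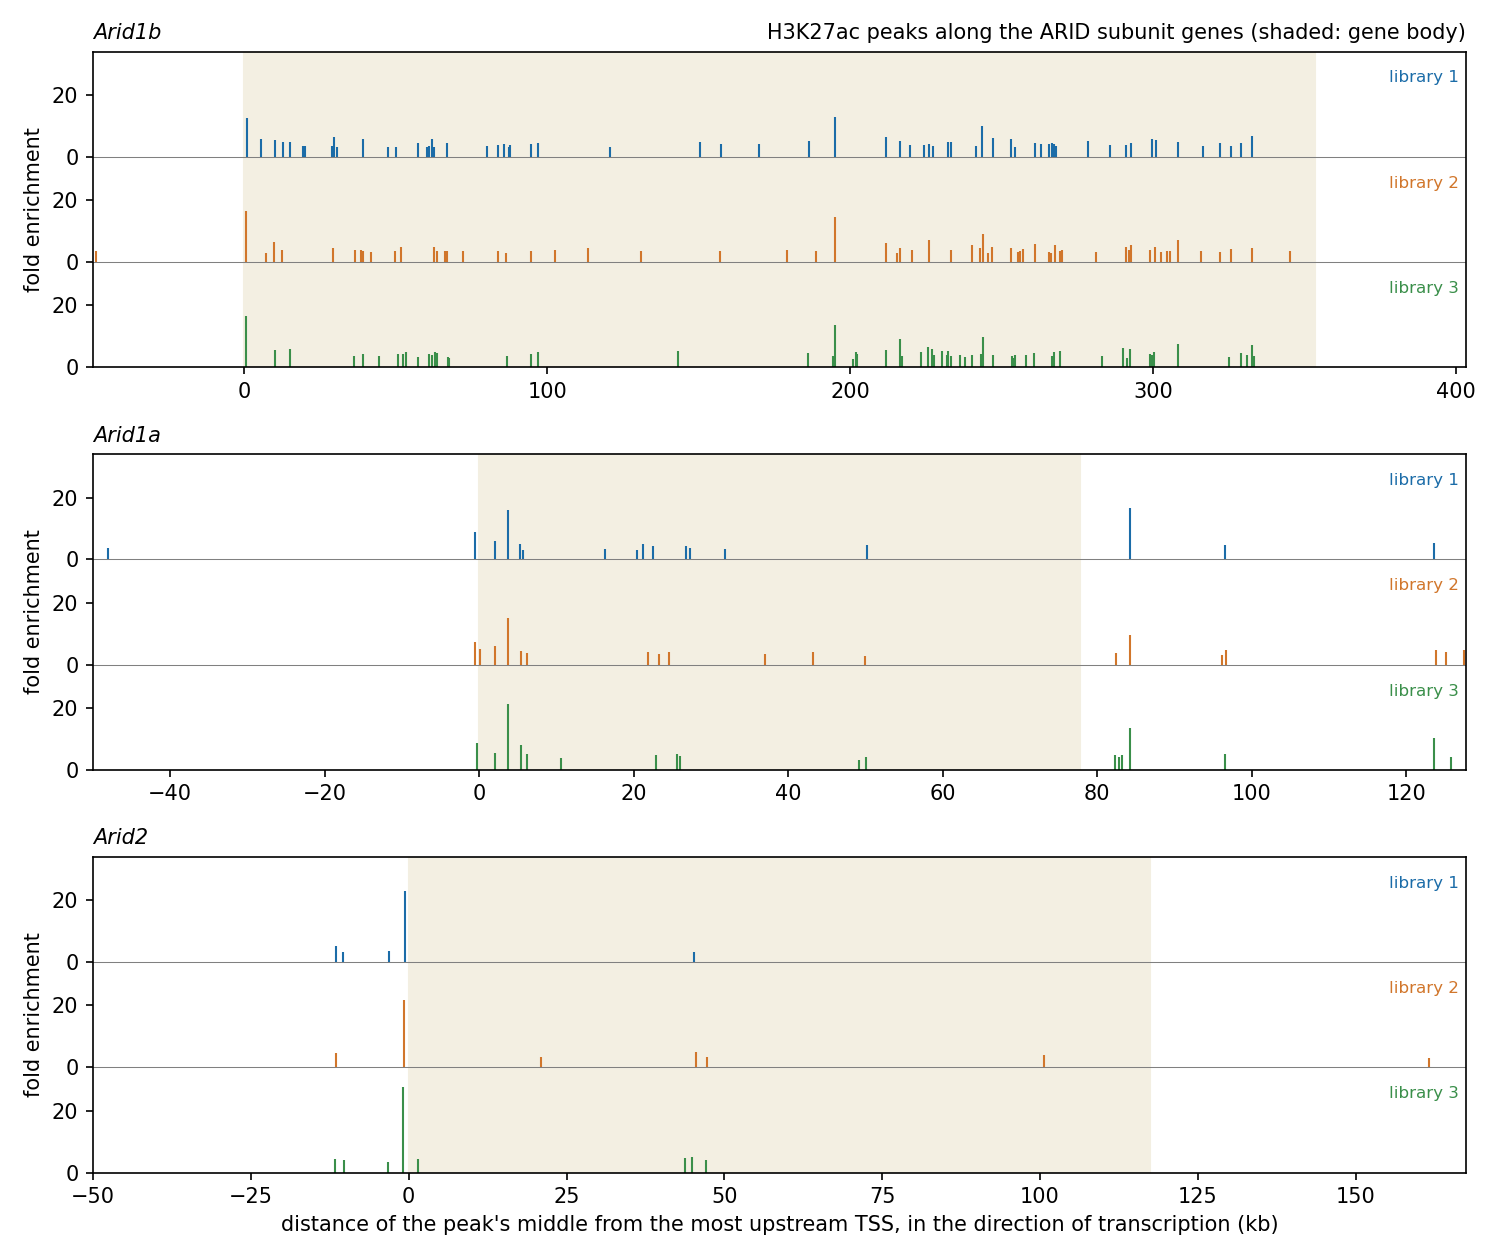
H3K27ac peaks along Arid1b, Arid1a and Arid2 (panels) in libraries 1, 2 and 3 (rows): each line stands at the middle of a peak, by distance in kb from the most upstream TSS (x axis), with its fold enrichment as height (y axis, linear, from 0 in each row). The gene body is shaded with 50 kb shown on either side. Arid1b carries 62 to 65 peaks across its body and Arid2 few outside its TSS, and the tallest Arid1b peak away from the start is the one at 195 kb.

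One intronic element of Arid1b stood out. It lay 195 kb from the start (chr17:5189447-5190250) and had a fold enrichment of 12.7, 14.6 and 13.8 (mean 13.7 ± 0.962 SD, n = 3), close to that of the Arid1b TSS peak, on 41, 49 and 55 fragments. No annotated protein-coding TSS lies within 1 kb of it. Its 201 bases around the summit (chr17:5189922-5190122, RefSeq GRCm38.p6, plus strand, with GC box letters in capitals) are shown. Of the sites in the 10 neighbourhoods found in all 3 libraries and away from annotated protein-coding TSSs, it was the strongest. The sequence held 67.2% G and C and 16 CpG.
Arid1b intronic element: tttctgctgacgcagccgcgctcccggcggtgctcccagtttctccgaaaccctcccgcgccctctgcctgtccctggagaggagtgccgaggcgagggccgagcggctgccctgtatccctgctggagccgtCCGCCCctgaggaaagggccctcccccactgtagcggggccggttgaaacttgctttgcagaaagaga

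The intronic Smarca2 peak near the start was the next of these (mean 11.2 ± 0.686 SD, n = 3). It counts as intronic by protein-coding transcripts only, since part of it is annotated as UTR. The part of it outside annotated UTR (chr19:26607544-26607674, plus strand) is shown because taking in this peak changes the comparison with Smarca4. With it, at the distance of 2.5 kb, the log2 ratio of fold enrichment fell from 0.92 to 0.36 and kept its direction. The log2 width ratio reversed, from 0.76 to -0.40.
Smarca2 intronic element: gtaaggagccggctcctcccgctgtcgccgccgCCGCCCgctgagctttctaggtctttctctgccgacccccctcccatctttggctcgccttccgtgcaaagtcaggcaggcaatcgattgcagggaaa
The whole 201-base window of the Smarca2 element had 67.7% G and C and 20 CpG. Both elements thus held a GC box, as the windows printed first for these genes do. The Arid1b window lies inside the gene, downstream of its first GENCODE start, so its GC box is not in sequence upstream of the gene. In Arid1a the strongest such region lay 5.29 kb from the first start, downstream of the inner promoter, with 4.95, 4.57 and 8.19. In Arid2 it lay 44.8 kb into the gene, with 3.27, 4.87 and 4.98 on 9, 14 and 15 fragments, near the lowest number at which peaks were called. Pbrm1, Brd7, Smarca4, Smarcb1, Smarcc1 and Smarcd2 had no region of this kind found in all 3 libraries.

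Over the 10 neighbourhoods 178 merged regions were found, of which 50 (28.1%, Wilson 95% interval 22.0% to 35.1%) were shared by all 3. Over the whole genome the share was 41.3% of 34595 regions. The 2 shares hold different mixtures of sites. At the members' own starts 20 of 22 regions were found in all 3 libraries, and Arid1b alone gave 118 of the 178. Without Arid1b the share was 28 of 60 (46.7%, Wilson 95% interval 34.6% to 59.1%).

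Super-enhancers were called by stitching nearby peaks (within a distance between the 5 kb and 20 kb tried as alternatives). The stitched regions were ranked by the sum of fold enrichment times length, and a region of 1 peak could pass. The study reports fewer super-enhancers, called from tag counts. Here 1383, 1083 and 1190 regions lay past the threshold in libraries 1, 2 and 3. The 3 ARID genes were assigned such a region in all 3 libraries. Smarcc1 was assigned one in library 2 alone, a single peak of 1.4 kb at rank 1067, and the other 6 genes in none. Of the 9908 genes with a TSS peak in at least 2 libraries, 18.0% were assigned one in at least 2. Among the 21 further subunit genes 6 were. The Arid2 region ranked 2, 8 and 10 of 11779, 12327 and 11525 stitched regions, and most of its signal was the TSS peak, joined by weaker peaks of which the farthest lay at -11.7 kb from the start. The Arid1b region that holds the TSS ranked 28, 46 and 157 and held 19, 4 and 3 peaks, since further peaks in library 1 bridged gaps that the other libraries had. In each library 2 regions past the threshold overlapped Arid1b, with 50, 40 and 35 peaks together. The Arid1a region ranked 96, 165 and 68. When peaks within 2.5 kb of any TSS were left out first, Arid1b was the only member that kept a super-enhancer, in all 3 libraries.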

How the data were processed

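H3K27ac ChIP-seq peak lists of 3 libraries of BcorΔE9-10 KL cells were used. The other 19 samples were not analysed here. Per the submitters' processing notes and the methods, reads were trimmed by the authors with cutadapt 1.7 and aligned with Bowtie2 on GRCm38, duplicates were taken out, and MACS2 2.1.1 called the peaks of each library on its own. The control and settings of the caller are not given in the sources used here. The scale between library and control solved from the values was 1, 1 and 0.983, and a separate control is possible. The deposited lists give per summit a fold enrichment (a ratio to the background set by the caller), the −log10 p and −log10 q (p-value and q-value), and a score, the whole-number part of the −log10 q multiplied by 10, which is not used here. Fold enrichment is not scaled between libraries, so ratios were taken within a library.

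Rows repeating an interval were taken as 1 peak with its highest fold enrichment. Overlap was counted from 1 bp. Gene models were GENCODE M21 (GRCm38), coordinates are counted from 1, and sequences came from RefSeq GRCm38.p6, read with samtools 1.23.1. Fragments at each summit were solved from fold enrichment and p (100% of rows), and depth from the genome-wide background at 200 bp fragments. Intervals cover counting error only.

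Ratios were tested with an exact two-sided sign-flip permutation test over the 3 libraries (Python 3.11.15, NumPy 2.4.6, SciPy 1.17.1), smallest p 0.25, which measures only the spread between these libraries. Percentiles, ranks and shares are descriptions. Scripts were tested on simulated data. Alternatives were the distance and choice of TSS, all TSS peaks together, a −log10 q of at least 5, wider subunit lists, neighbourhood size, stitching and ranking, and leaving out each library. The genes named are the 10 members and part of a list of 21 further subunits. From that list they are those without a TSS peak, the 3 highest, the 3 lowest and paralogues. The additions to the wider subunit lists, Ss18l1, Bcl7a and Bcl7c are named as well. The members, lists and tests were chosen with earlier results of these data known. The super-enhancer threshold is the slope of 1 named by the study, on peaks in place of its tag counts. Of the marker genes used to check the cell label, 1 is not reported here.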

Additional observations from a re-analysis of the deposited data

How the results depend on the processing

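No paired analysis was possible because all 3 libraries belong to 1 group, and the comparisons are between genes within each library. The log2 ratio of PBAF to BAF fold enrichment was -0.09 and turned to 0.43 with the most upstream TSS only, to 0.026 with all peaks within the distance and to 0.078 without genes that share a TSS peak. That of Arid1a to Arid1b fold enrichment (0.19) turned to -0.87 with the most upstream TSS and to -0.17 with all peaks, and that of their width (-0.53) to 0.14 with all peaks. The log2 width ratio of Smarca4 to Smarca2 (0.76) turned to -0.40 at a distance of 2.5 kb and to -0.12 with all peaks. By construction, these settings take another or more peaks per gene. All other settings kept the direction of the 6 ratios. With all peaks the median of the 10 genes moved to a fold enrichment of 11.5 and a width of 1808 bp. Under the stricter −log10 q (at least 5) the peaks in the 10 neighbourhoods went from 107 to 49.7 per library and the share of regions in all libraries to 39.2%. Leaving out each library put that share at 37.3% to 41.7%, since 2 libraries then have to share a region. Super-enhancers numbered 3 members in the main setting, 5 with stitching within 5 kb and 1 without TSS peaks. All 10 genes kept a TSS peak in every library under each setting tried. Of the single-gene values, 90 of 90 moved by less than the spread or 1.5-fold when a library was left out, and under the other settings 44 of 50 fold enrichments, 31 of 40 widths and 29 of 40 peak counts did. For fold enrichment and width the first count holds by construction. Dropping 1 of 3 values always moves a mean by less than their SD.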
